A study of Mus musculus with 8 samples.

Results

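The 10 genes described here are transcriptional targets of the cAMP/CREB pathway: Nr4a1, Nr4a2, Nr4a3, Crem, Sik1, Egr1, Egr2, Pde4d, Pde4b and Ppargc1a. They were chosen by name, and each matched exactly 1 of the 78298 transcript rows of the deposited tables by its gene symbol. They were measured in NIH3T3 cells, a wild-type mouse embryonic fibroblast line grown in DMEM with 10% FBS, by sequencing of poly(A) RNA. The 8 libraries were 4 of cells given vehicle and 4 of cells given the compound Mic-628, all collected after 1 day. Each of the 4 batch numbers in the labels holds 1 vehicle and 1 Mic-628 library. Whether replicates were cultured apart is not stated in the labels, so the p-values measure only how much these libraries vary, and that variation may be technical. The title of the series names an inducer of Period1 (Per1). Because cAMP/CREB is a classical route to Per1, the comparison asks whether other genes on that route differed when Per1 did.

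In this pathway cAMP releases the catalytic subunits of protein kinase A (PKA), which phosphorylate CREB bound to the cAMP response element (CRE) of its target genes. The coactivators CBP and p300 and the CRTC proteins then raise transcription. Several targets feed back on the signal: PDE4 enzymes degrade cAMP, SIK kinases keep CRTC proteins out of the nucleus, and the ICER products of Crem repress through the CRE. In fibroblasts the Nr4a and Egr genes are known as immediate early genes, which answer a stimulus fast and for a short time. The libraries hold a single time point, so a rise that had ended by 1 day was not measured.

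The start-site windows of the NR4A genes and of Per1 are shown first so that the cores of the CRE in them can be seen beside each other. The CRE core was searched as TGACG on both strands (CGTCA on the strand shown), and the full palindromic CRE as TGACGTCA, which contains the core on each strand. Windows ran from 250 bases before to 50 bases after each RefSeq start site on GRCm38.p6, a build older than that of the counts. They were available for 7 of the 10 genes, all but Crem, Sik1 and Egr1. The sequences read 5′ to 3′ along the gene, end before the start site, leave out annotated exon bases of the gene, and have each CRE core in capitals.
Nr4a1, chr15:101266596-101266845, plus strand: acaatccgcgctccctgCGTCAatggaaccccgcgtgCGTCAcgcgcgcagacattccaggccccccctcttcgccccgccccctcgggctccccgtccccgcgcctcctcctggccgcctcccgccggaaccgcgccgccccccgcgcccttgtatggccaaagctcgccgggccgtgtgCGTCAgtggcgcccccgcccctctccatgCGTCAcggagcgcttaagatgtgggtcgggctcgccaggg
Nr4a2, chr2:57124004-57124253, minus strand: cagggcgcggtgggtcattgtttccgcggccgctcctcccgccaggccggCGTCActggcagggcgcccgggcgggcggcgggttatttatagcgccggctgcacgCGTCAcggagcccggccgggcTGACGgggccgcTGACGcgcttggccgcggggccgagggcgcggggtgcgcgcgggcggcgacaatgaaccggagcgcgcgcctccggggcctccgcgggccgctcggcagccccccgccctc
Nr4a3, chr4:48045055-48045152, plus strand: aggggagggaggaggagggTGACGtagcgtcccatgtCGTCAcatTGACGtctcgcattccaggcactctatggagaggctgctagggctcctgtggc
Per1, first start site, chr11:69098699-69098947, plus strand: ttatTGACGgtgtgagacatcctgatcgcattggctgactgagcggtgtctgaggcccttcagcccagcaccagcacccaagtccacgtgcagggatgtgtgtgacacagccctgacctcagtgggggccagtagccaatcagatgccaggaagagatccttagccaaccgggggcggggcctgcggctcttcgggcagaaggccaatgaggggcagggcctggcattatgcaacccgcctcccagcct
Per1, second start site, chr11:69099902-69100151, plus strand: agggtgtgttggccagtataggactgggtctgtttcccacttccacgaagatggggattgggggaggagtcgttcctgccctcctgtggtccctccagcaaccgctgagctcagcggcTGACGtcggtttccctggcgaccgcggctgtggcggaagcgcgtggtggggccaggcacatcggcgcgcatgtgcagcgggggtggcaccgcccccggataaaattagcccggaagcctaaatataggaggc

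Each NR4A window held 4 CRE cores, which 0.231% of all 32851 windows matched or exceeded. They began at -233, -213, -69 and -40 from the start site in Nr4a1 and at -200, -144, -123 and -111 in Nr4a2. In Nr4a3 they began at -231, -213, -205 and -147, the last of them inside an annotated exon and not shown. Each of the Per1 windows held 1 core, at -246 and -132, and the first also held 1 E-box (CACGTG, in 7.15% of all windows). At least 1 core was present in 20.8% of all windows. Among the other genes, Ppargc1a had 1 core, 1 of 4 Pde4b windows had 1, 3 of 5 Egr2 windows, which overlap, had 2, and the Pde4d window had 0. The full CRE occurred in none of these windows and in 1.79% of all windows. Crem, Sik1 and Egr1 had no window and were not searched. The start sites of the windows lay at the first base of the counted transcript for Nr4a2, 152 bases downstream of it for Nr4a3 and 1 and 1204 bases downstream for the Per1 windows. The Nr4a1 start site lay 12577 bases downstream of the counted transcript's first base, and those of Pde4b, Pde4d and Ppargc1a lay far from theirs too. A match is a run of letters and was not tested for binding. The genes were chosen as CREB targets and the windows were not matched for base composition. The share of 0.231% is therefore no test of enrichment.

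None of the 10 genes was called changed after 1 day of Mic-628, while Per1 rose from 21.5 ± 1.21 to 124.5 ± 5.77 CPM (SD, n = 4 each). CPM here is a count scaled to library size, with TMM factors between libraries, and a gene is called at an adjusted p under 0.05. All 10 genes passed the low-count filter and were tested, with 0 higher and 0 lower by edgeR's quasi-likelihood test. Over all 17128 tested rows 4.37% were called, 2.13% higher and 2.25% lower, so 0 of 10 is also what a list near this background can show. At an unadjusted p under 0.05 there were 4 of the 10 genes, against 17.0% of all tested rows. These were Pde4b and Sik1, with higher means with Mic-628, and Pde4d and Egr2, with lower means. DESeq2 called 0 of the 8 genes to which it gave an adjusted p, all but Nr4a3 and Egr2, and limma-voom called 0 of the 10. The median log2 fold change of the 10 was 0.06, against -0.0040 over all tested rows. Their median absolute log2 fold change was 0.13, against 0.07.

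**Figure D1:**
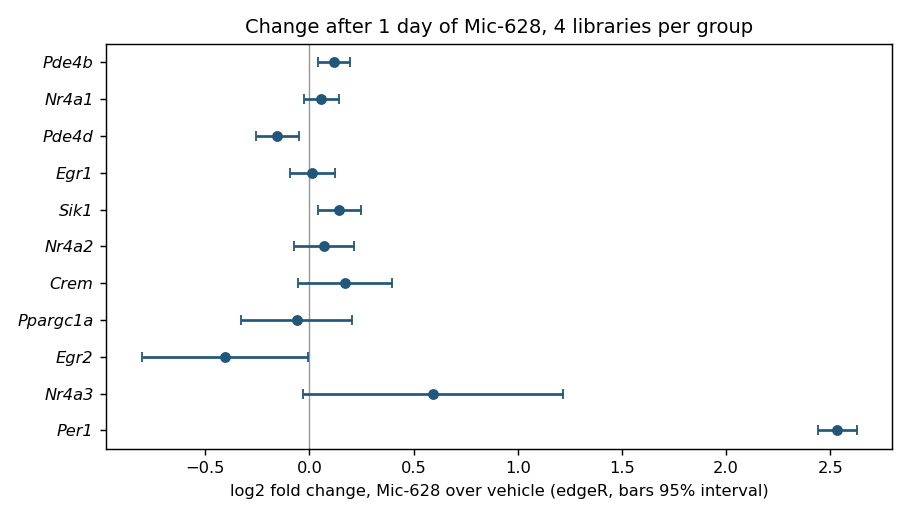
Log2 fold change of Mic-628 over vehicle (x axis) for the 10 genes and Per1 (y axis, ordered by level); points are edgeR estimates from 4 libraries per group and bars are 95% intervals. Per1 stands at 2.53, and the highest upper bound among the 10 genes is 1.22, for Nr4a3.

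The 10 genes spanned a wide range of levels, which can be compared between genes as FPKM, which scales fragments to exon length and library size. Pde4b was highest at 21.8 ± 1.16 FPKM (SD over all 8 libraries, as for the other levels in this paragraph), followed by Nr4a1 at 15.3 ± 0.503 and Pde4d at 11.8 ± 0.809. Egr1 at 6.78 ± 0.401 and Sik1 at 6.49 ± 0.477 came next, and their ranges over the libraries overlapped. Nr4a2 was at 3.47 ± 0.222, Crem at 1.45 ± 0.129, Ppargc1a at 0.604 ± 0.0901, Egr2 at 0.413 ± 0.0807 and Nr4a3 at 0.0993 ± 0.0376. The ranges of Ppargc1a and Egr2 overlapped as well, and no other neighbours in this order did. Per1 was at 4.31 ± 0.235 FPKM with vehicle, between Sik1 and Nr4a2, and at 24.9 ± 1.17 FPKM with Mic-628 (SD, n = 4 each).

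**Figure D2:**
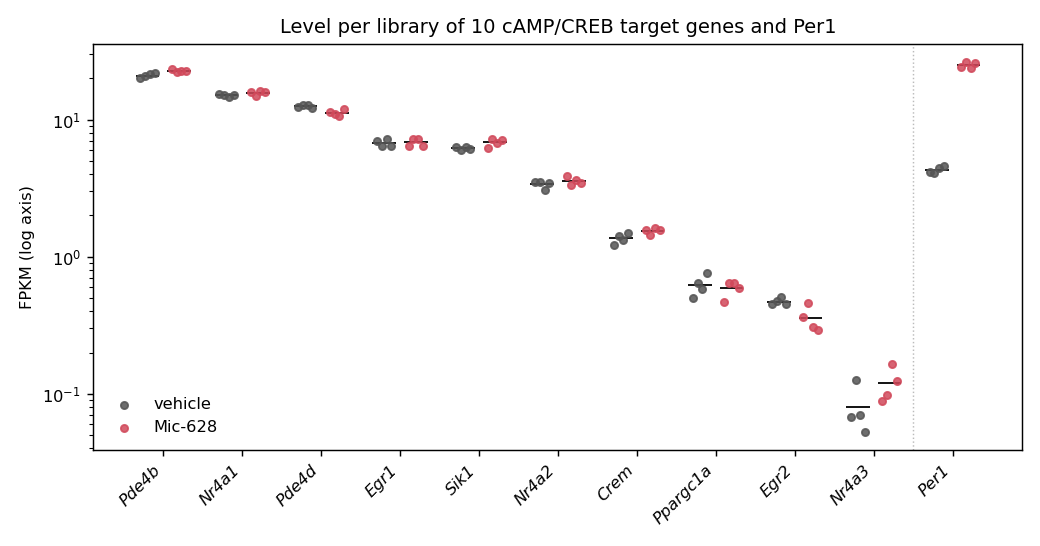
FPKM on a log axis (y) of the 10 genes, ordered by level, and of Per1 (x) in each library; grey points are vehicle, red points Mic-628, and black lines the mean of 4 libraries. The groups overlap for 8 of the 10 genes, all but Pde4b and Pde4d, while Per1 moves from 4.31 to 24.9 FPKM. In CPM, all Mic-628 libraries lay above all vehicle libraries in 5.64% of all tested rows and below them in 5.06%.

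The NR4A genes encode orphan nuclear receptors that act as early response factors without a known need for a ligand. Nr4a1 (transcript ENSMUST00000228985.2, chromosome 15, 101152150 to 101172676 on mm39, plus strand) had 41.7, 41.7, 40.1 and 41.3 CPM in vehicle replicates 1 to 4. With Mic-628 it had 43.5, 40.6, 44.0 and 43.4 CPM. All Mic-628 libraries but replicate 2 lay above the vehicle libraries. Its log2 fold change was 0.06 (SE 0.041), with a 95% interval of 0.981-fold to 1.10-fold (edgeR adjusted p = 0.528). Nr4a2 (ENSMUST00000112629.8, chromosome 2, 56996842 to 57014015, minus strand) had 11.3 to 12.98 CPM with vehicle and 12.2 to 14.2 CPM with Mic-628, so the groups overlapped. Its log2 fold change was 0.07 (95% interval -0.08 to 0.21; edgeR adjusted p = 0.678).

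Nr4a3 (ENSMUST00000030025.10, chromosome 4, 48045153 to 48086445, plus strand) was the least abundant of the 10, with between 7 and 22 counts per library. It had 0.421, 0.784, 0.431 and 0.329 CPM in vehicle replicates 1 to 4 and 0.552, 0.601, 1.02 and 0.758 CPM in the Mic-628 replicates. The mean was higher with Mic-628, but vehicle replicate 2 exceeded 3 of the 4 Mic-628 libraries. The log2 fold change of 0.59 (SE 0.302) was the largest in size among the 10 in the edgeR fit and also the least precise, with a 95% interval of 0.978-fold to 2.32-fold (edgeR adjusted p = 0.325). Without vehicle replicate 2 the log2 fold change was 0.93 and without Mic-628 replicate 3 it was 0.39, and it was 1.03 without batch 2 and 0.33 without batch 3. On the log2(FPKM + 1) scale over all rows, where the pseudocount is above its level, it was 0.05, smaller in size than that of Egr2 (-0.12).

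The EGR genes encode zinc finger transcription factors of the immediate early class, driven by serum response factor as well as by CREB. Egr1 (ENSMUST00000064795.6, chromosome 18, 34992876 to 34998037, plus strand) had 31.1 to 34.7 CPM with vehicle and 31.0 to 34.9 CPM with Mic-628. The ranges nearly coincided, and the log2 fold change was 0.01 (95% interval -0.09 to 0.12; edgeR adjusted p = 0.931). Egr2 (ENSMUST00000105438.9, chromosome 10, 67373700 to 67378018, plus strand) had 1.39, 1.48, 1.56 and 1.39 CPM in vehicle replicates 1 to 4 and 1.13, 1.42, 0.954 and 0.900 CPM with Mic-628. It was lower with Mic-628 in 4 of 4 batch pairs (share of all tested rows not computed), and Mic-628 replicate 2 overlapped the vehicle libraries. With 19 to 33 counts per library, its log2 fold change was -0.40 (SE 0.193; 95% interval -0.80 to -0.0062), with an unadjusted p of 0.0468 and an edgeR adjusted p of 0.286.

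Crem and Sik1 encode feedback regulators of CREB-driven transcription. Crem (ENSMUST00000150235.8, chromosome 18, 3266354 to 3337679, minus strand) had 3.49, 4.06, 3.81 and 4.25 CPM in vehicle replicates 1 to 4 and 4.45, 4.10, 4.61 and 4.45 CPM with Mic-628. It was higher in 4 of 4 batch pairs (share of all tested rows not computed), with Mic-628 replicate 2 inside the vehicle range. The log2 fold change was 0.17 (SE 0.109; 95% interval -0.05 to 0.40; edgeR adjusted p = 0.449). The row counts all exons of its transcript, so ICER, which starts from a promoter inside the gene, was not counted apart.

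Sik1 (ENSMUST00000024839.6, chromosome 17, 32063224 to 32074778, minus strand) had 30.5, 29.1, 30.6 and 29.6 CPM in vehicle replicates 1 to 4 and 30.0, 35.2, 32.4 and 34.5 CPM with Mic-628. Mic-628 replicates 2 to 4 lay above the vehicle libraries and replicate 1 among them. The log2 fold change was 0.14 (SE 0.050; 95% interval 0.04 to 0.25), with an unadjusted p of 0.00841 and an edgeR adjusted p of 0.114. It was called without Mic-628 replicate 1 (log2 fold change 0.18, edgeR adjusted p = 0.0348) and without batch 1 (0.19 and 0.0244), and with every library in the fit it was not.

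The PDE4 genes encode phosphodiesterases that degrade cAMP, and they were the 2 genes of the 10 whose groups did not overlap. Over all tested rows, every Mic-628 library lay above every vehicle library in 5.64% and below in 5.06%. A list of 10 genes can hold such genes at these shares. Each row counts the exons of 1 transcript, so here, as for Ppargc1a below, transcripts from other start sites were not counted apart. Pde4b (ENSMUST00000106911.8, chromosome 4, 101944740 to 102463030, plus strand) had 64.2, 67.0, 68.8 and 70.2 CPM in vehicle replicates 1 to 4 and 76.1, 70.9, 73.0 and 73.6 CPM with Mic-628. Every Mic-628 library lay above every vehicle library, as in 5.64% of all tested rows. Its log2 fold change was 0.12 (SE 0.037; 95% interval 0.04 to 0.20), or 1.09-fold, with an unadjusted p of 0.00410 and an edgeR adjusted p of 0.0746.

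Pde4d (ENSMUST00000074103.12, chromosome 13, 109822690 to 110088008, plus strand) went the other way. It had 28.2, 29.3, 29.7 and 28.0 CPM in vehicle replicates 1 to 4 and 26.5, 25.0, 24.4 and 27.6 CPM with Mic-628. Every Mic-628 library lay below every vehicle library, as in 5.06% of all tested rows. The log2 fold change was -0.15 (SE 0.050; 95% interval -0.26 to -0.05), with an unadjusted p of 0.00493 and an edgeR adjusted p of 0.0828. Pde4b was called without vehicle replicate 4 (log2 fold change 0.14, edgeR adjusted p = 0.0488), and Pde4d without batch 4 (-0.20 and 0.0449).

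Ppargc1a encodes PGC-1 alpha, a coactivator of mitochondrial biogenesis that CREB induces in liver and muscle. Its row (ENSMUST00000132734.8, chromosome 5, 51611592 to 51711264, minus strand) had 3.46 to 5.26 CPM with vehicle and 3.29 to 4.47 CPM with Mic-628. The ranges overlapped, with vehicle replicate 4 above every Mic-628 library, and the log2 fold change was -0.06 (95% interval -0.33 to 0.21; edgeR adjusted p = 0.868).

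**Figure D3:**
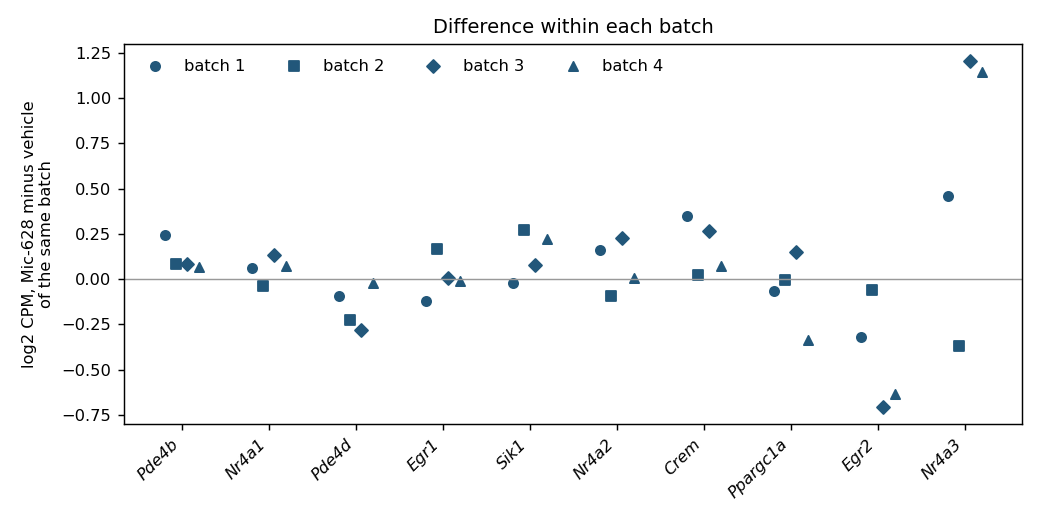
Difference in log2 CPM between the Mic-628 and the vehicle library of the same batch (y) for each of the 10 genes, ordered by level (x); each symbol is 1 of 4 batches. Crem and Pde4b lie above 0 and Pde4d and Egr2 below 0 in 4 of 4 batches, and the low-count Nr4a3 ranges from -0.37 to 1.2. None of these genes was called, and the share of all tested rows with the same direction in 4 of 4 batches was not computed.

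The log2 ratio of Per1 to each of the 10 genes was taken in each library and is given as a description, since all 10 ratios share the rise of Per1. The smallest difference between the group means was against Nr4a3, where the log2 ratio gained 1.92, and the largest was against Egr2, 2.96. Against Pde4b, the most abundant gene, vehicle libraries had a log2 ratio of -1.65 ± 0.042 and Mic-628 libraries one of 0.76 ± 0.096 (SD, n = 4 each), a difference of 2.41. The 95% interval of the Per1 change ran from 5.42-fold to 6.17-fold, above the highest upper bound among the 10 genes, 2.32-fold for Nr4a3, and the bounds of the other 9, at most 1.32-fold. The intervals are not adjusted for the number of genes.

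The machinery that makes and reads cAMP was followed in 24 genes, of which 16 were tested, 2 were higher, 0 lower and 14 not called, against 2.13% higher and 2.25% lower over all tested rows. Adcy1, an adenylyl cyclase, rose by 0.15 on the log2 scale, with 55.4 ± 3.33 CPM in vehicle and 61.5 ± 1.38 CPM in Mic-628 libraries (SD, n = 4 each; edgeR adjusted p = 0.0346). Prkar2a, a regulatory subunit of PKA, rose by 0.12, with 63.0 ± 0.924 and 68.5 ± 1.27 CPM (SD, n = 4 each; edgeR adjusted p = 0.0456). The median of the 16 was -0.02. Both calls were near the threshold. DESeq2 did not call them (adjusted p 0.0588 and 0.0943), nor, for Prkar2a, did edgeR with the replicate block (0.0911). The Adcy1 call was lost when vehicle replicate 1 or 2, Mic-628 replicate 1, 3 or 4, or batch 1, 2 or 3 was left out (edgeR adjusted p 0.0556 to 0.137). Prkar2a was called without vehicle replicate 1 or batch 1, and not without any other library or batch (0.0621 to 0.267).

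Among CREB relatives, coactivators and SIK kinases, 11 of 12 genes were tested and 0 were called, against 4.37% of all tested rows. At that share a list of this size can show 0. The 2 with the smallest p were the kinase genes Sik3 (log2 fold change 0.12, edgeR adjusted p = 0.144) and Sik2 (0.07 and 0.466). For Creb1, chosen after its values were seen, the log2 fold change was 0.04 (edgeR adjusted p = 0.717). Of 12 cAMP phosphodiesterase genes other than Pde4b and Pde4d, 6 were tested and 0 called, as a list of this size can show at a share of 4.37%. Pde4a, a paralog of both, had a log2 fold change of -0.19 (edgeR adjusted p = 0.124). Every Mic-628 library of Pde4a lay below every vehicle library, as for Pde4d and in 5.06% of all tested rows. Pde1b, at 1.07 CPM with vehicle, had a log2 fold change of 0.56 (edgeR adjusted p = 0.146), and its groups overlapped.

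Of 19 further genes known as CREB targets in other cells, 13 were tested, 1 was higher, 3 were lower and 9 were not called, with a median of -0.03. Over all tested rows 2.13% were higher and 2.25% lower. This list, like the others, was drawn up with earlier results of these data known, so its count is not independent evidence. Dusp1, a phosphatase that inactivates MAP kinases, rose (log2 fold change 0.41, edgeR adjusted p = 9.33e-05). Junb, a subunit of AP-1, fell (-0.24 and 0.00303). Nfil3 (-0.55 and 3.31e-09) and Per2 (-0.86 and 0.00231), which are also clock genes, fell. Leaving out batch 3 ended the Per2 call (edgeR adjusted p = 0.0630). With the block in DESeq2, neither Junb nor Per2 was called (adjusted p 0.0592 and 0.0807). Fos, an AP-1 subunit gene chosen after its values were seen, had 0.542 ± 0.0656 CPM with vehicle and 0.924 ± 0.113 CPM with Mic-628 (SD, n = 4 each; 0.79, edgeR adjusted p = 0.0625). The untested 6 were near 0, among them Sst, Crh and Th, which had 0 counts in all libraries.

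Neither paralogs and partners of the 10 genes nor the serum response factor pathway had a called gene, against 4.37% called over all tested rows. At that share lists of this size can hold none. Of 12 paralogs and partners 11 were tested, with a median of -0.03. The smallest p belonged to Crebl2 (log2 fold change -0.15, edgeR adjusted p = 0.164) and to Rxra, which encodes a dimer partner of some NR4A receptors (-0.06 and 0.449). All 6 serum response factor genes were tested and had log2 fold changes from -0.08 to -0.0012, led by Elk3 (-0.08, edgeR adjusted p = 0.338) and Elk1 (-0.08 and 0.357).

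**Figure D4:**
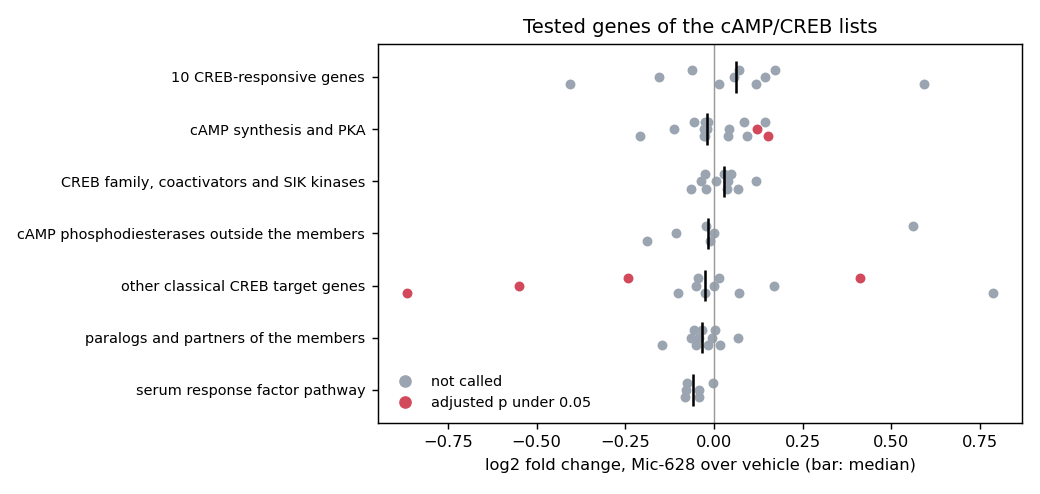
Log2 fold change of Mic-628 over vehicle (x) for every tested gene of 7 lists (y); red points are called at an edgeR adjusted p under 0.05, grey points are not, and black bars are list medians. The 10 CREB-responsive genes hold no called gene, and the 6 called genes are 2 of cAMP synthesis and PKA and 4 of the other CREB targets.

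The genes whose variation was most like that of each member were found by Pearson's r of log2 CPM over the 8 libraries after each group mean was subtracted. This compared 15059 rows for each of the 9 members with a mean of at least 1 CPM, and such a search returns high r from the number of rows alone. The closest rows were Zfp335os for Nr4a1 (r = 0.965), Gpr63 for Nr4a2 (0.984), Gm50455 for Crem (0.979), Rasa3 for Sik1 (0.983), Ccdc61 for Egr1 (0.972), Gm49179 for Egr2 (0.960), Mindy4 for Pde4d (0.978), Kif18b for Pde4b (0.987) and Osbpl7 for Ppargc1a (0.978). None of the 3 closest rows of any member was another member. Between members r ran from -0.861 (Nr4a1 with Egr2) to 0.750 (Nr4a1 with Nr4a2).

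Other rows overlap some of these genes, and whether the counts used strand is not given in the sources used here. The most abundant was an unnamed antisense row over the start of Pde4d (ENSMUSG00000130363), with 4.00 CPM with vehicle and 3.78 CPM with Mic-628 against 28.8 and 25.9 for Pde4d. Gm56721, on the same strand inside Nr4a1, had 1.89 and 1.92 CPM. Neither was called (edgeR adjusted p 0.781 and 0.985).

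The libraries had 18.1 M to 23.2 M counts on listed rows. Of 10 fibroblast markers 9 had a mean of at least 1 FPKM, all but Lum. Their summed level was 5081 to 5259 FPKM with vehicle and 4432 to 4548 with Mic-628. Most of that sum was Vim and Fn1, which fell with Mic-628 (log2 fold changes -0.22 and -0.28), as did Col1a2 and Col3a1 (-0.14 and -0.57; edgeR adjusted p 8.57e-07 to 0.00708 for the 4). The other 6 were not called, among them Col1a1 (-0.0044), Thy1 (0.0031), Pdgfra (0.03) and Pdgfrb (0.0099). Among markers of other cell types, 1 of 5 epithelial genes (Krt14) and 2 of 5 blood and macrophage genes (Cd68 and Csf1r) reached 1 FPKM. None of the endothelial, neuronal, adipocyte and skeletal muscle markers, 4 each, did. The summed blood and macrophage level was 7.99 to 8.62 FPKM with vehicle and 8.81 to 9.58 with Mic-628, with Adgre1 and Cd3e at 0, and the adipocyte level was 0.350 to 0.675 and 0.741 to 1.06, with Adipoq and Lep at 0. Only Cd68, Csf1r and Fabp4 of these sums were tested, and none was called (edgeR adjusted p 0.26, 0.149 and 0.0748). Most of the adipocyte sum was Fabp4. The part of these differences in the values above was not tested.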

How the data were processed

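The authors deposited 2 tables of 78298 canonical transcript rows with mm39 coordinates: exon read counts in steps of 0.5, treated as estimated counts, and FPKM. The tools listed in the submitters' processing notes are HOMER 4.11, STAR 2.7.10a and bcl2fastq, and the build is mm39 (GRCm39); roles are not given there. FPKM recomputed from the counts, lengths and header totals differed by at most 5e-04. Columns were matched to samples by library name, with 0 unmatched.

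Rounded counts went into edgeR 4.0.16 under R 4.3.3 (filterByExpr, minimum count 10; TMM; quasi-likelihood F test, no block; Benjamini-Hochberg over 17128 rows). Each SE was derived from the F statistic. CPM are TMM-scaled, with a prior count of 0.5 in log2 CPM. The fitting was tested on simulated data. Of 50 rows each changed 1.2, 1.5, 2 and 3-fold, 33, 39, 47 and 50 were called, with 15 false calls among the unchanged rows. The changed rows were drawn from all levels and no batch difference was simulated. These numbers do not give the power for low-count genes such as Nr4a3 and Egr2. Alternatives were DESeq2 1.42.0, the replicate block, other scalings and filters, limma 3.58.1 (voom, and trend on log2 FPKM with a pseudocount of 1 or 0.1) and leaving out libraries or batches. Replicates differed by more than counting noise (chi-square per row 1.66 to 5.33), and none was a duplicate. In the labels each batch number is shared by 1 vehicle and 1 Mic-628 library and equals the replicate number. Deviations of same-batch libraries correlated at -0.0949 to 0.0744, against -0.117 to 0.141 for other pairs. By this measure same-batch libraries were no more alike than other pairs.

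The members and lists were chosen with earlier results of these data known. Named genes are the 10 members, Per1, every called gene of each list (or the 2 with the smallest p), the closest rows by correlation and overlapping rows. Promoter windows are RefSeq's (GRCm38.p6), and exon limits are from GENCODE M21. Figures used matplotlib 3.10.9.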

Additional observations from a re-analysis of the deposited data

How the results depend on the processing

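Each of the 10 genes was refitted under 24 alternatives, which gave 235 values; 219 kept the direction and the side of the threshold, 4 crossed to called, 8 changed sign and 4 (Nr4a3 and Egr2 in DESeq2) kept the direction with no adjusted p. With the replicate block 0 were called higher and 0 lower, of 10 in edgeR and of the 8 with an adjusted p in DESeq2; the block changed no call among these. Among the called pathway genes, the block in edgeR ended the call of Prkar2a (adjusted p = 0.0911) and no other. With it in DESeq2, Adcy1, Prkar2a, Junb and Per2 were not called (0.359, 0.614, 0.0592 and 0.0807), and Dusp1 and Nfil3 were. At an adjusted p under 0.1, 1 member was called higher (Pde4b) and 1 lower (Pde4d), and at 0.01 none. Leaving out a library or a batch gave 0 to 1 members higher and 0 to 1 lower. The log2 fold change of Egr1 then ran from -0.036 to 0.057 and that of Ppargc1a from -0.15 to 0.050; the cause was not tested. By limma-trend on log2(FPKM + 1) 0 of the 8 members above its filter were called, and Adcy1, Prkar2a and Junb were not called either (adjusted p 0.235, 0.0928 and 0.0810). Over all rows in that fit Dusp1 and Per2 were not called (0.0584 and 0.201). The ratio of Per1 to a member rose by 1.65 to 3.07 on the log2 scale without any single library. Depth limits Nr4a3 and Egr2, which had at most 22 and 33 counts per library. The Prkar2a call also ended without the low-count filter (0.108), with upper-quartile scaling (0.0548) and in limma-voom (0.0504).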

Other observations

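The log2 ratio of Pde4b to Pde4d, a ratio chosen after the values were seen and therefore not tested, compares 2 enzymes that degrade the same messenger. In vehicle replicates 1 to 4 it was 1.19, 1.19, 1.21 and 1.33, and in Mic-628 replicates 1 to 4 it was 1.52, 1.5, 1.58 and 1.41. Every Mic-628 library lay above every vehicle library, which follows from the separation already given for each gene and adds nothing to it. The means were 1.5 ± 0.069 with Mic-628 and 1.23 ± 0.065 with vehicle (SD, n = 4 each), a difference of 0.27. Neither gene was called on its own.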
